A study of Mus musculus with 36 samples.

Results

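Mast cell genes were examined in the fetal mouse mammary gland. The 8 genes were Cpa3, Cma1, Mcpt4, Tpsb2, Hdc, Kit, Ms4a2 and Fcer1a, out of 18193 gene symbols carried by probe sets annotated to a single symbol. A gene was taken from the probe sets annotated to its symbol alone. There were 12 such probe sets for the 8 genes, and the one with the highest mean over all 36 arrays stood for the gene.

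The mRNA was profiled on Affymetrix expression arrays from C57BL/6 female fetuses at E19, in peri-ductal stroma and epithelium cut from sections of the inguinal mammary gland by laser capture microdissection. The dams carried osmotic pumps from E8 that delivered vehicle (50% DMSO), bisphenol A (BPA, a weakly estrogenic component of plastics) at 250 ng/kg BW/day or ethinylestradiol (EE2, the synthetic estrogen of oral contraceptives) at 10 ng/kg BW/day. Both ERα(+/+) and ERα(−/−) fetuses came from crosses of ERα(+/−) parents, so the dams themselves were heterozygous. Each of the 12 combinations of compartment, genotype and exposure had 3 arrays from different litters. The methods describe both captures of a fetus as taken from the same gland. Arrays of equal replicate number within a genotype and exposure were therefore paired, which gave 18 glands. The labels do not state this pairing. By the study's methods each treated litter gave a fetus of either genotype, so ERα(+/+) and ERα(−/−) glands of an exposure may share litters, and the labels do not tie replicate numbers to litters. Captured RNA was amplified before labeling, and values are linear signal intensities.

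Mast cells are tissue-resident immune cells that arise from hematopoietic progenitors, enter tissues as immature cells and fill with granules there. The granules of connective tissue mast cells hold carboxypeptidase, chymases and tryptases bound to heparin, together with histamine. Survival and maturation depend on the receptor KIT and its ligand stem cell factor, and cross-linking of IgE on the receptor FcεRI makes the cells release their granules. In the mammary gland they lie in the connective tissue and fat around the ducts.

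For the granule proteases Cpa3, Mcpt4 and Cma1, on which the comparison of compartments turns, the sequence just before the transcription start is shown because GATA factors are known regulators of mast cell genes. The windows are the 250 bases before the start in RefSeq (build GRCm38.p6), all on the minus strand and written 5′ to 3′ toward the start: Cpa3 at chr3:20242182-20242431, Mcpt4 at chr14:56062311-56062560 and Cma1 at chr14:55944676-55944925. Capitals mark the GATA letters searched, which were AGATAA or AGATAG, and likewise those letters with a first T, TGATAA or TGATAG, on either strand.
Cpa3: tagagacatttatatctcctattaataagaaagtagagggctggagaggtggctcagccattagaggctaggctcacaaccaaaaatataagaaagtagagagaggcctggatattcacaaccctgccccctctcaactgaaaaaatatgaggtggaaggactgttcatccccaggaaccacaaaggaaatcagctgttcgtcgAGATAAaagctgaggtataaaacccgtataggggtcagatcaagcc
Mcpt4: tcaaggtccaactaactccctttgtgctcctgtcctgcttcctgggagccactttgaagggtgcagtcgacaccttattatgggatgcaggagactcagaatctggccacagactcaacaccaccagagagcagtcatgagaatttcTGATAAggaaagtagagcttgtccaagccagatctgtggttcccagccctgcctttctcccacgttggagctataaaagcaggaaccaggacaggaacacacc
Cma1: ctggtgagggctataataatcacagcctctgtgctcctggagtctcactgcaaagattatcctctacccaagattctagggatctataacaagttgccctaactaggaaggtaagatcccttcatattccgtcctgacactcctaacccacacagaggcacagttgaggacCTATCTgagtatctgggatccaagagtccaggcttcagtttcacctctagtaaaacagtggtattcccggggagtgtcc
The match began 46 bases before the start in Cpa3, 103 in Mcpt4 and 79 in Cma1, where it lay on the other strand. A window was at hand for 7 of the 8 genes, and 6 of these held at least 1 match, all but Kit. Of 32851 promoter windows of the same length, 26.5% held one. The E-box letters CACATG or CACGTG were found in 1 of the 7, Fcer1a, against 17.6% of all windows. These are matches of letters only, and binding was not measured.

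Array brightness differed between samples. Median signals per array spanned 12 to 44.1 for stromal and 10.9 to 66.8 for epithelial captures. The dimmest arrays were both compartments of ERα(+/+) vehicle gland 2 and the stroma of ERα(+/+) BPA gland 3, and values without these 3 arrays stand beside many of the changes by exposure or genotype. By limma the markers differed in the direction of the labels. All 8 epithelial markers, among them Krt8 and Cdh1, were lower in the stroma, beside 15.9% of all probe sets. All 7 fibroblast and all 6 endothelial markers were higher there, beside 4.39%. Stromal markers were still bright in the epithelial captures. Col1a1 had means of 5855 there and 10941 in the stroma, and Fabp4 had 7970 and 12261. The part of stromal carry-over in the epithelial signal of the mast cell genes was not tested. The targeted gene Esr1, which encodes ERα, overlapped between genotypes. Its brightest probe set had a median of 114.5 (20.3 to 396.7) in ERα(+/+) stroma and 37.6 (13.9 to 81.8) in ERα(−/−) stroma, with 9 arrays each. Where its probes lie relative to the disrupted part of the gene was not examined. The deposited values hold no detection calls, so whether a dim signal was above background is unknown.

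The first comparison was between compartments. Of the 8 mast cell genes, 7 had a higher stromal than epithelial signal, by 2.21 to 2.91 on the log2 scale, and Kit was not called in either direction. By limma with the gland as a block, 20.3% of 45037 probe sets were called at an adjusted p under 0.05. Of all probe sets, 4.39% were called higher in the stroma and 15.9% lower. The median log2 change of the 8 genes was 2.44, beside −0.35 over all probe sets. These are bulk captures, in which fewer cells of a type and less RNA per cell cannot be told apart.

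Cpa3, which encodes the carboxypeptidase of mast cell granules, had stromal signals from 1439.7 to 4268.6 with a median of 2776, and epithelial signals from 31.3 to 1650.6 with a median of 542.2. The stromal array was the higher one in 18 of 18 glands, and 16 of 18 stromal arrays lay above the highest epithelial array. The stromal mean was 2784 ± 740.1 and the epithelial mean 679.4 ± 550.4 (SD, n = 18). The log2 difference was 2.66 (SE 0.40), a 6.34-fold higher signal, with a limma adjusted p of 0.00031.

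Cma1 and Mcpt4 encode chymases of connective tissue mast cells. Stromal arrays gave Cma1 signals of 1215.3 to 3401.9 (median 2714), and epithelial arrays gave 50 to 1997.0 (median 555.1). For Mcpt4, stromal signals were 219.0 to 1115.2 (median 638.8) and epithelial signals 5.7 to 336.4 (median 122.0). Both were higher in the stroma of all 18 glands, although the ranges of the compartments overlapped. The log2 differences were 2.40 (SE 0.34) for Cma1 and 2.47 (SE 0.38) for Mcpt4, with limma adjusted p of 0.00018 and 0.00037. Over all probe sets, 0.668% were higher in the stroma of 18 of 18 glands. For none of the 8 genes did every stromal array lie above every epithelial one, which held for 0.0155% of probe sets.

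Tpsb2, which encodes a tryptase of mast cell granules, gave 38.8 to 1223.3 (median 617.1) on stromal arrays, against 13.2 to 611.8 (median 166.0) on epithelial ones. It was higher in the stroma of 17 of 18 glands, as were 1.47% of probe sets in at least 17. The exception was ERα(+/+) EE2 gland 1, with a stromal signal of 563.3 and an epithelial one of 611.8. The log2 difference was 2.21 (SE 0.33, limma adjusted p = 0.00029), and the other Tpsb2 probe set gave 1.95 (SE 0.46). Tpsb2 is closely related in sequence to the tryptase gene Tpsab1, and whether the probe sets keep them apart was not tested.

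Hdc encodes histidine decarboxylase, the enzyme that makes histamine. Its stromal signal was 636.4 to 1780.6 (median 1034) and its epithelial signal 0.4 to 713.5 (median 181.7), and the stroma was higher in 18 of 18 glands. The lowest epithelial value came from the dimmest array. The log2 difference was 2.91 (SE 0.59, limma adjusted p = 0.0029), and it was between 2.33 and 3.25 when each array was left out in turn. The other Hdc probe set had a difference of 2.30 (SE 0.50).

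Ms4a2 and Fcer1a encode the β and α chains of FcεRI, the receptor for IgE. Stromal Fcer1a signals lay between 1.4 and 362.5, with a median of 14.95, and epithelial ones between 0.5 and 36.7, with a median of 1.8. Only 2 stromal arrays lay above the median signal of their own array, at 362.5 in ERα(+/+) vehicle gland 2 and 103.1 in ERα(+/+) EE2 gland 2. All the other stromal values were at or below 26.4. The stroma was higher in 17 of 18 glands, and the log2 difference was 2.70 (SE 0.49, limma adjusted p = 0.0014), which shrank to 0.84 (limma adjusted p = 0.020) once an offset of 16 was applied. Over all alternatives the limma adjusted p was 0.00050 to 0.020.

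Stromal Ms4a2 signals were 1.4 to 235.0 (median 45.6) and epithelial ones 1.0 to 65.6 (median 6.45), and the gene was higher in the stroma of 15 of 18 glands. The log2 difference was 2.29 (SE 0.57, limma adjusted p = 0.011), or 1.14 with that offset. Its probe sets did not give the same picture. The other one had a stromal mean of 9.67 and an epithelial mean of 8.38, was higher in the stroma of 7 glands, and had a log2 difference of −0.29 (SE 0.37, limma adjusted p = 0.62).

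Kit, the receptor for stem cell factor, is also made by melanocytes and by some epithelial cells. Its signals were 9.2 to 145.9 (median 52.8) on stromal arrays and 0.6 to 291.8 (median 74.9) on epithelial arrays. The stroma was the higher compartment in 9 of 18 glands. The log2 difference was −0.17 (95% interval −1.29 to 0.94, limma adjusted p = 0.85), and the other probe set gave −0.51 (SE 0.55). Of the listed melanocyte genes, 5 of 7 were lower in the stroma by limma, beside 15.9% of all probe sets. Dct had a log2 difference of −3.22 and Sox10 one of −2.93, while Ednrb was higher there by 1.85. Epithelial means were 1656 for Sox10 and 171 for Dct, but 12.7 to 40.1 for Tyrp1, Mlana, Tyr and Pmel. The part of melanocytes in the Sox10 or the Kit signal was not tested.

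**Figure D1:**
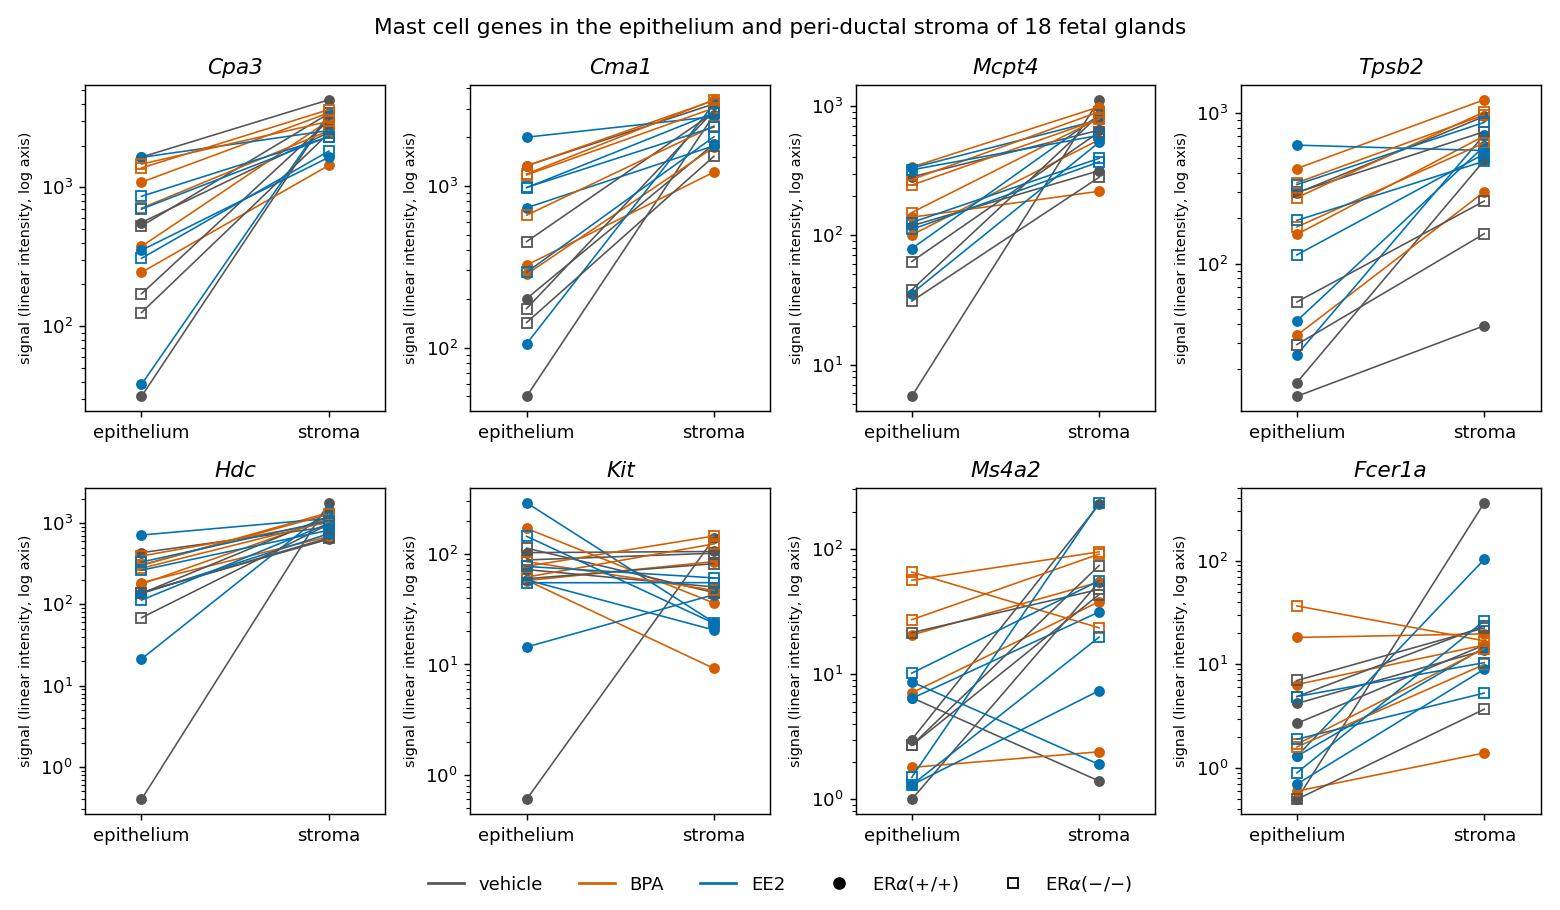
Signal (linear intensity on a log axis) of each gene in the epithelium and the stroma of the 18 glands. Each line joins the arrays of equal replicate number, taken as 1 gland. Colors give the exposure, filled circles ERα(+/+) and open squares ERα(−/−). Lines rise toward the stroma in 18 of 18 glands for Cpa3, Cma1, Mcpt4 and Hdc and in 9 of 18 for Kit.

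Other genes of the pathway were taken from lists. Of the proteases and granule proteins besides the 8 genes, 9 of 13 were measured and 2 were higher in the stroma, with no gene lower. These were Srgn, which encodes the core protein serglycin of the granules, at 2.47 (SE 0.30), and the tryptase gene Tpsab1 at 2.66 (SE 0.37). The stromal and epithelial means were 606.1 and 140.9 for Srgn and 194.2 and 57.4 for Tpsab1. Ctsg, which encodes cathepsin G, had a log2 difference of 1.40 and Ndst2, which encodes an enzyme of heparin synthesis, one of 0.09, neither of which passed the test. The mucosal protease genes Mcpt1 and Mcpt2 had stromal means of 5.09 and 16 and were not called. The median log2 difference of the list was 1.04, beside −0.35 over all probe sets, of which 4.39% were called higher in the stroma and 15.9% lower.

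Among the genes of amines and eicosanoids, 7 of 8 were measured and 2 were higher in the stroma by limma, beside 4.39% of all probe sets. Hpgds, the hematopoietic prostaglandin D synthase, differed by 2.00 (SE 0.47) and Alox5ap, which presents substrate to the leukotriene pathway, by 2.21 (SE 0.30). Slc18a2, the transporter that loads histamine into granules, differed by −0.31 and was not called. Of the genes for receptors and signaling below FcεRI and Kit, 12 of 15 were measured and 2 were higher, Fcer1g (the shared γ chain) by 1.34 and Mrgprb1, a receptor of the Mrgpr family, by 2.91. Mrgprb1 was dim, with a stromal mean of 28.8 and an epithelial mean of 7.47. The shared kinases and lipases of the list were not called, with −0.15 for Plcg1, −0.13 for Fyn and 0.09 for Plcg2. The called genes outside the brightest of each list were singled out after their values were seen.

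All 8 genes of the list of the Kit ligand and transcription factors were measured. Gata2 and Tal1, hematopoietic transcription factors, were higher in the stroma by 1.64 (SE 0.24) and 1.73 (SE 0.41). Tal1 was dim, with a stromal mean of 30.95 and an epithelial mean of 12.24. Runx1 was lower there, by −3.25 (SE 0.20), with a stromal mean of 192.6 and an epithelial mean of 1789. Kitl, which encodes stem cell factor, had means of 495.7 and 667.3, a log2 difference of −0.62 that was not called. Mitf, a factor of mast cells and melanocytes, had −0.69 and was not called either.

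Markers of other cells moved with the mast cell genes between the compartments. Of 12 macrophage and leukocyte markers, 9 were higher in the stroma and none lower, beside 4.39 and 15.9% of all probe sets. C1qb was at 2.56 and Csf1r at 2.87. The summed signal of the 12 was 8211 to 22942 on stromal arrays and 1133 to 5419 on epithelial arrays. The endothelial markers (6 of 6 higher) summed to 595.0 to 5917 on stromal and 43.2 to 3289 on epithelial arrays. All 3 measured adipocyte markers were higher in the stroma as well, and of 6 skeletal muscle markers none was called, although their sum reached 29460 on one stromal array. The part of these cells in the signal of the 8 genes, or of listed genes such as Srgn, Fcer1g, Alox5ap, Hpgds, Gata2 and Tal1, was not tested. The 2 measured basophil genes, Mcpt8 and Cd200r3, were dim in both compartments, with means of 7.13 and 6.48 for Mcpt8 and of 11.9 and 7.82 for Cd200r3, and neither was called.

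The second question was whether genotype or exposure changed these genes in the stroma. No mast cell gene was called in any of the 22 comparisons of exposure or genotype within a compartment, under any setting. At an unadjusted limma p under 0.05 there were 0, 1 and 0 of the 8 in the stroma for BPA, EE2 and genotype, beside 4.52, 4.51 and 3.82% of all probe sets. Over all probe sets limma called 0% for BPA or EE2 against vehicle in the stroma, 0.00222% for ERα(−/−) against ERα(+/+) there, and at most 0.00444% in any of the 22, so the counts say little about the 8 genes in particular.

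Cpa3 in ERα(+/+) stroma was 2488.2, 3339.8 and 4268.6 after vehicle, 3439.5, 3022.1 and 1439.7 after BPA, and 2565.5, 1645.5 and 3389.5 after EE2. In ERα(−/−) stroma it was 3399.5, 2457.4 and 3036.3 after vehicle, 2986.8, 2556.5 and 3625.2 after BPA, and 2310.6, 1826.0 and 2319.8 after EE2. The ranges of all 6 groups overlapped except that the ERα(−/−) EE2 arrays all lay below all 3 arrays of each other ERα(−/−) group and of ERα(+/+) vehicle. Many pairs of groups of 3 arrays were looked at, and the share of probe sets with such a separation was not computed. EE2 against vehicle within ERα(−/−) stroma gave no call for Cpa3, as for 0% of probe sets. Stromal group means ran from 3366 ± 890.5 in ERα(+/+) vehicle to 2152 ± 282.5 in ERα(−/−) EE2 (SD, n = 3), with neighbours in the order closer than the larger SD of the pair. The highest epithelial group, ERα(−/−) BPA at 1186 ± 416.0, lay below the lowest stromal group by more than the larger SD. The log2 change with BPA was −0.19 (95% interval −1.02 to 0.65), with EE2 −0.45 (−1.28 to 0.39) and without ERα −0.02 (−0.70 to 0.67).

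For Cma1, Mcpt4, Tpsb2 and Hdc, too, all 6 stromal group means lay above all 6 epithelial ones. This did not hold for Kit, Ms4a2 and Fcer1a, and the share of all probe sets with such an order of group means was not computed. Neighbouring groups in the order of the 12 means differed by no more than the larger SD of the pair in 11 of 11 steps for Cma1 and Tpsb2 and in 10 of 11 for Mcpt4 and Hdc. Sorting itself puts close means side by side, so these steps, as for Cpa3, do not show that groups were alike. For Cma1 even the step from stroma to epithelium, 2106 ± 1124 to 1003 ± 298.9, was within the larger SD. In ERα(+/+) stroma Cma1 was 1813.6, 2749.4 and 3208.9 after vehicle, 3369.4, 1734.1 and 1215.3 after BPA and 2678.0, 1768.3 and 3214.6 after EE2. In ERα(−/−) stroma it was 2841.1, 1522.8 and 2916.6, then 3027.1, 2345.9 and 3401.9, and 2828.4, 2010.2 and 2307.3. Every exposure thus held arrays on both sides of the stromal median of 2714.

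Mcpt4 was 315.6, 1115.2 and 649.6 after vehicle, 982.7, 547.9 and 219.0 after BPA and 778.3, 850.0 and 523.6 after EE2 in ERα(+/+) stroma. Without ERα it was 849.8, 280.9 and 627.9, then 790.2, 800.1 and 900.2, and 592.7, 393.5 and 369.6. The ERα(−/−) BPA arrays were the closest to each other, and the ERα(−/−) EE2 arrays all lay below the stromal median of 638.8.

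Hdc was 636.4, 1780.6 and 904.1 after vehicle, 1346.7, 687.2 and 1141.0 after BPA and 1140.9, 742.3 and 1457.8 after EE2 in ERα(+/+) stroma. In ERα(−/−) stroma it was 1215.0, 972.1 and 660.0, then 1286.2, 1048.6 and 1019.8, and 1071.4, 992.2 and 818.7. The highest value belonged to the dim ERα(+/+) vehicle array 2, and the groups overlapped. With BPA the stromal log2 change was −0.04 (95% interval −0.91 to 0.83) for Cma1, 0.16 (−0.86 to 1.19) for Mcpt4 and 0.14 (−0.72 to 1.01) for Hdc. With EE2 it was −0.00 (−0.87 to 0.87), −0.03 (−1.06 to 0.99) and 0.07 (−0.80 to 0.94). For Mcpt4 the BPA value was 0.67 (−0.30 to 1.64) without the 3 dimmest arrays. The other Hdc probe set gave −1.10 (−2.50 to 0.30) with BPA and −0.51 with EE2. None of these passed the test, and the intervals of the brightest probe sets leave room for changes of nearly 1 log2 unit in either direction.

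Tpsb2 varied widely among the vehicle stroma arrays. Its values were 484.1, 38.8 and 948.0 in ERα(+/+) and 751.2, 158.1 and 260.5 in ERα(−/−). After BPA they were 1223.3, 704.7 and 299.9 in ERα(+/+) and 971.1, 633.1 and 1015.9 in ERα(−/−), and after EE2 563.3, 601.1 and 717.0 in ERα(+/+) and 866.1, 535.2 and 478.8 in ERα(−/−). The lowest vehicle value came from the dim ERα(+/+) gland 2, and the ranges overlapped. The log2 change was 1.37 with BPA (95% interval −0.08 to 2.81, limma adjusted p = 0.99) and 1.10 with EE2 (−0.34 to 2.55). Without that array they were 0.68 and 0.41. The other Tpsb2 probe set went the opposite way, with −0.56 (−2.03 to 0.91) for BPA and −0.90 (−2.36 to 0.57) for EE2.

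Kit was 44.8 to 138.7 in the 6 vehicle stroma arrays (median 91.9), 9.2 to 145.9 after BPA (median 66.3) and 20.5 to 60.9 after EE2 (median 33.5). The EE2 values overlapped with the low end of the vehicle values. The log2 change with EE2 was −1.23 (95% interval −2.44 to −0.02), which passed the unadjusted limma threshold but not the adjusted one (adjusted p = 1.00). Without the dim ERα(+/+) vehicle array 2 the change was −1.07 (−2.36 to 0.21). With BPA it was −0.59 (SE 0.57), and the interval was −1.14 to 1.14, centred near 0, without the 3 dimmest arrays. It was −0.16 without ERα(+/+) BPA array 3. The other Kit probe set gave −0.66 with BPA and −0.71 with EE2. Against EE2 itself, BPA gave log2 differences from −0.71 to 0.64 in the stroma over the probe sets standing for the 8 genes, and none passed the test.

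Ms4a2 in the stroma was 1.4 to 227.8 in the 9 ERα(+/+) arrays and 19.8 to 235.0 in the 9 ERα(−/−) arrays. ERα(+/+) held all the values below 10 (1.4, 2.4, 7.4 and 1.9). The log2 difference was 1.96 (95% interval −0.01 to 3.94, limma adjusted p = 1.00), and 1.26 without ERα(+/+) vehicle array 2. The other Ms4a2 probe set had the opposite sign, −0.36 (−1.71 to 0.99). With BPA Ms4a2 changed by −0.23 (−2.65 to 2.19), and by −1.57 (−3.73 to 0.59) without the 3 dimmest arrays. Fcer1a differed by −0.67 (SE 0.77) between genotypes. With BPA it changed by −1.20 (SE 0.94), where the vehicle group holds the value of 362.5. Without that array the change was −0.43, and without the 3 dimmest arrays it was 0.18 (−1.42 to 1.78). For the interactions of exposure with genotype in the stroma, the 8 genes had log2 values from 0.16 to 2.60 for BPA and from −0.47 to 2.02 for EE2, beside medians over all probe sets of 0.45 and −0.09, and none was called.

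**Figure D2:**
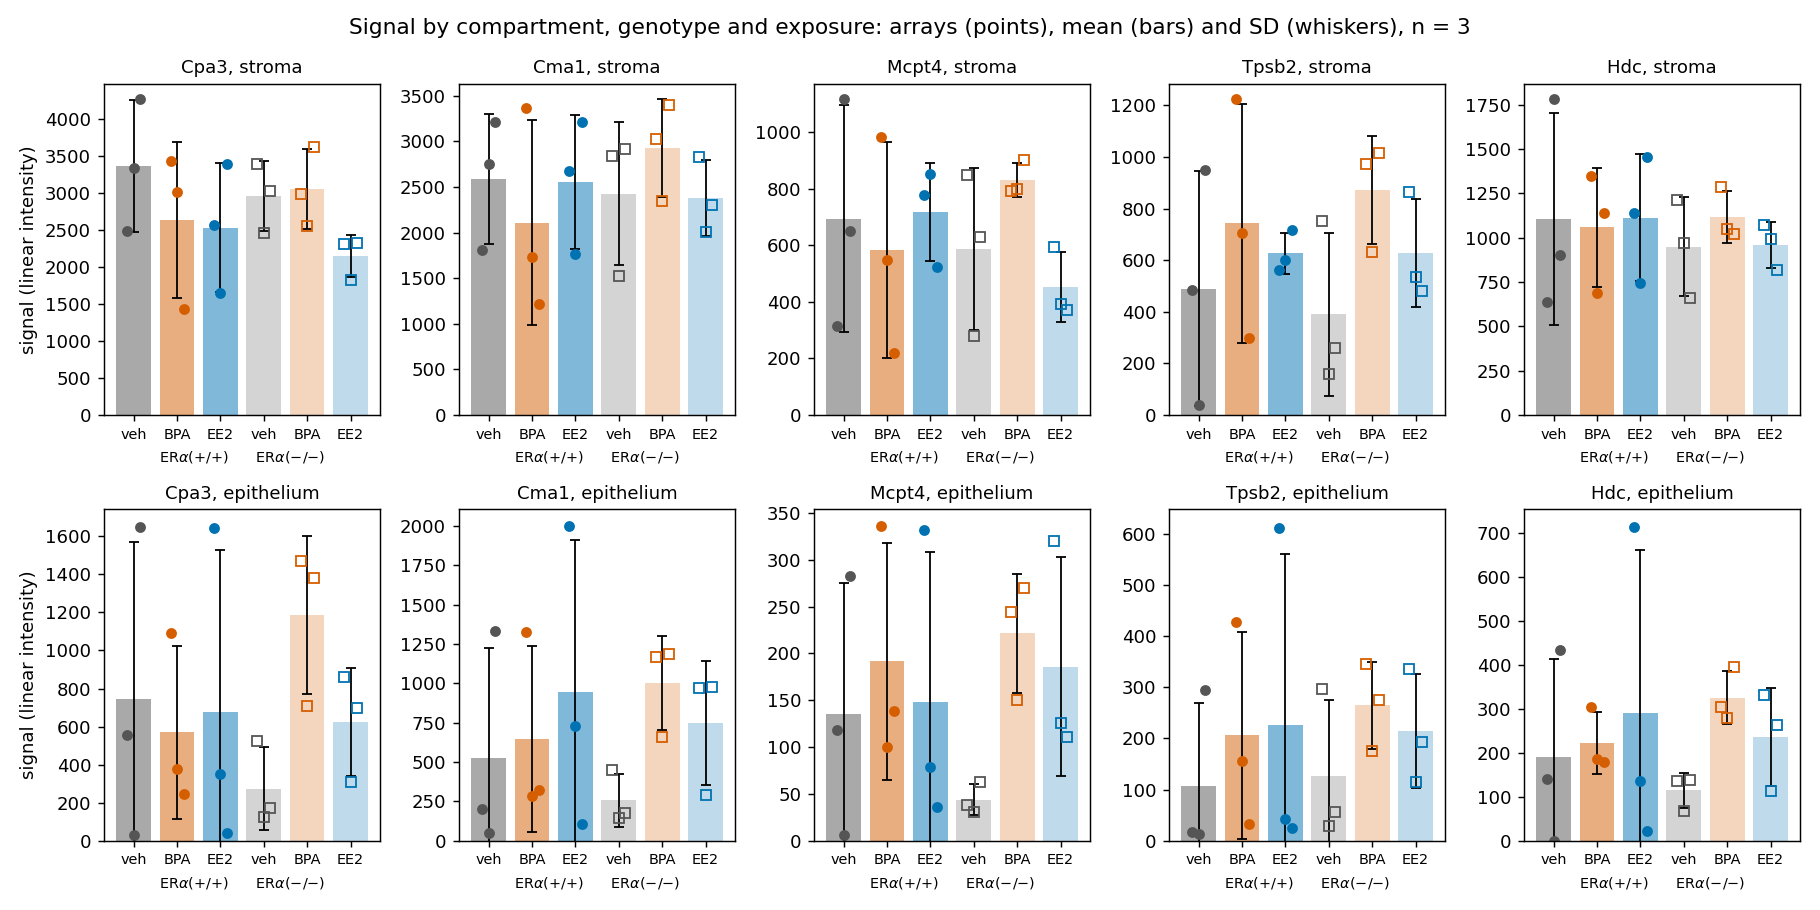
Linear signal intensity of 5 mast cell genes by genotype and exposure (veh, vehicle) in the stroma (top) and the epithelium (bottom); points are arrays, bars the mean and whiskers the SD (n = 3), cropped at 0, and the axes differ between panels. For Cpa3 all 6 stromal means, 2152 to 3366, lie above the highest epithelial mean of 1186, while arrays of different exposures overlap. The share of all probe sets with such an order of means was not computed.

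On the log2 scale most of the same genes varied more from array to array in the epithelium than in the stroma. The SE of the BPA change was 0.95 for Cpa3, beside 0.39 in the stroma. It was about equal for Fcer1a (1.00 and 0.94) and smaller for Ms4a2 (0.80 and 1.14). On the linear scale the SD of Cpa3 was 550.4 in the epithelium and 740.1 in the stroma. Cpa3 was 31.3 to 1650.6 in the 6 vehicle arrays, 244.2 to 1469.4 after BPA and 38.1 to 1642.7 after EE2. Mcpt4 was 5.7 to 282.7 (median 50.3), 100.6 to 336.4 (median 197.1) and 35.5 to 331.4 (median 118.2). With the genotypes pooled, the vehicle medians were the lowest of the exposures for both, and the ranges overlapped. This order was that of ERα(−/−), with medians after vehicle, BPA and EE2 of 171.1, 1379.6 and 697.1 for Cpa3 and 37.9, 244.1 and 125.5 for Mcpt4. It did not hold in ERα(+/+), with 557.8, 375.7 and 352.2 for Cpa3 and 118.4, 138.0 and 78.9 for Mcpt4 (n = 3 each). All 8 genes had a positive log2 change with BPA against vehicle, from 1.03 to 2.23 with a median of 1.65, beside a median of 0.68 over all probe sets. The lowest signals came in part from the dim array of ERα(+/+) vehicle gland 2. Without the 3 dimmest arrays the changes were −0.12 to 2.50 with a median of 0.86, with Kit below 0, Fcer1a at 0.57, Cpa3 at 0.64 and Hdc at 0.68.

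None of these changes was called by limma, as for 0% of probe sets. Mcpt4 at 1.95 (95% interval 0.24 to 3.65) and Ms4a2 at 2.18 (0.48 to 3.88) passed the unadjusted threshold, as did 17.7% of all probe sets, with limma adjusted p of 0.25 and 0.22. Neither passed it with quantile normalization (1.24, −0.16 to 2.64, and 1.34, −0.40 to 3.08). Without the 3 dimmest arrays Mcpt4 was at 1.11 (−0.12 to 2.35) and Ms4a2 at 2.50 (0.71 to 4.29), and the other Ms4a2 probe set, over all arrays, gave 0.56 (−0.90 to 2.03). The other Kit probe set gave 2.16 (0.18 to 4.14, limma adjusted p = 0.26). Ms4a2 also differed by 2.36 (SE 0.80) between BPA and EE2, past the unadjusted threshold, as were 4.23% of all probe sets, with a limma adjusted p of 1.00. Its epithelial values were 20.6, 1.8 and 7.1 in ERα(+/+) and 65.6, 27.3 and 56.4 in ERα(−/−) after BPA, and at most 21.5 after vehicle and 10.2 after EE2. With EE2 against vehicle, 6 of the 8 changes were positive, from −0.55 to 1.56 over the 8, beside a median of 0.40 over all probe sets. Without the 3 dimmest arrays 5 were positive, from −1.01 to 0.81, with Cpa3 at −0.21, Kit at −0.23 and Hdc at 0.01. Without ERα all 8 were positive, from 0.22 to 1.08, beside a median of 0.38 over all probe sets, and again none was called. Without the 3 dimmest arrays 7 were positive, with Mcpt4 at −0.34, Hdc at 0.05 and Cpa3 at 0.07, and Mcpt4 was −0.17 with quantile normalization. The other Kit probe set differed by 2.72 (1.11 to 4.34) between genotypes in the epithelium, with a limma adjusted p of 0.52.

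The difference between compartments was also read within each exposure and genotype. Of the 8 genes, 6 were called higher in the stroma with vehicle (1.85% of all probe sets called higher), 0 with BPA (0.113%) and 2 with EE2 (0.56%), and 6 in ERα(+/+) (2.66%) and 5 in ERα(−/−) (1.14%). At an unadjusted limma p under 0.05 in either direction the counts were 7, 4 and 7 for vehicle, BPA and EE2, beside 16.5, 20.9 and 20.3% of all probe sets. Of the 45037 probe sets, 3537, 1005 and 1705 passed this threshold with a higher signal in the stroma. Taken alone, none of the 6 groups of genotype and exposure gave a call among the 8 genes, where 0.122, 0.393 and 0.244% of probe sets were called in ERα(+/+) and 0.222, 0.151 and 0.904% in ERα(−/−) for vehicle, BPA and EE2. The count with BPA was 5 with array weights and that with EE2 ran from 0 to 7 when arrays were left out in turn. The test of the difference itself called none of the 8 (0% of probe sets, and for BPA 0 of the 8 at an unadjusted p under 0.05, beside 7.68%): the BPA difference minus the vehicle difference ran from −2.41 to −0.34 over the 8 genes, with adjusted p from 0.66, and its median over all probe sets was −0.51. For Cpa3 it was −1.65 (95% interval −3.73 to 0.43).

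**Figure D3:**
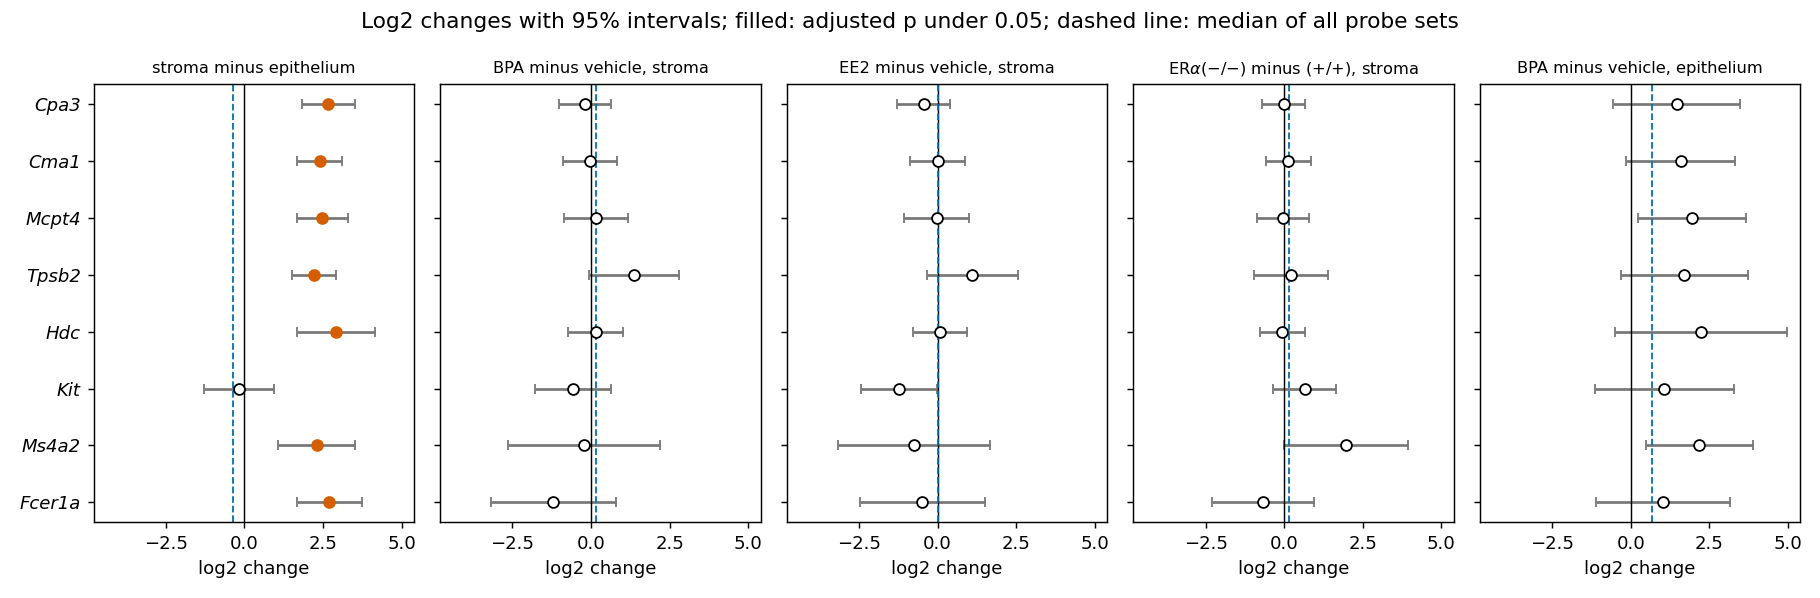
Log2 change of each gene in 5 comparisons with the 95% interval (bars); filled points have a limma adjusted p under 0.05, open points do not, and the dashed line is the median over all probe sets. Points are filled for 7 genes between the compartments and for none by exposure or genotype, and with BPA in the epithelium all 8 lie above 0, where the dashed line is at 0.68; without the 3 dimmest arrays Kit lies at −0.12 there.

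The 5 genes that lay above the median signal on every stromal array were Cpa3, Cma1, Mcpt4, Tpsb2 and Hdc. This choice by stromal signal sets part of any gap between the compartments, so the next values are descriptions only. The mean log2 signal of these genes minus the log2 median of the array was 5.35 ± 0.37 over stromal and 2.41 ± 1.24 over epithelial arrays (SD, n = 18). Within the epithelium it was 1.89 ± 1.58 with vehicle, 2.77 ± 0.62 with BPA and 2.57 ± 1.36 with EE2 (SD, n = 6), differences smaller than the spread in the vehicle group. Across the 18 epithelial arrays the pairwise Pearson correlations of these genes were 0.54 to 0.88, with a median of 0.76. Across the stromal arrays they were −0.61 to 0.84, and the 4 with Tpsb2 were the only ones below 0. Without the dim ERα(+/+) vehicle array 2, a choice made after seeing the data, they were −0.085 to 0.66 with a median of 0.30, and those with Tpsb2 were −0.085 to 0.44. Over all 18 arrays Spearman's ρ of Tpsb2 with the others was −0.17 to 0.12, and Cpa3 with Mcpt4 had ρ of 0.15 beside r of 0.62. Points share the brightness and amplification of their array, so these are descriptions.

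Over the 18 epithelial arrays the mean of the 5 genes went with the markers of endothelium (r = 0.78, Spearman ρ = 0.82), of macrophages and leukocytes (0.71 and 0.73) and of adipocytes (0.71 and 0.80), and against those of epithelium (−0.53 and −0.54). With fibroblast markers r was 0.35. Without the 2 arrays farthest from the median of the marker level these were 0.86, 0.50, 0.72, −0.40 and 0.18. In the epithelium the summed endothelial markers had medians of 306.7 with vehicle, 1863 with BPA and 1222 with EE2. Their part in the exposure values above was not tested. Over the 18 stromal arrays r was 0.85 with the leukocyte markers (0.70 without 2 arrays), 0.72 with the fibroblast markers (0.60), 0.65 with the adipocyte markers (0.085), 0.067 with the endothelial markers (0.39) and −0.58 with the log2 array median (−0.27), with the dim ERα(+/+) vehicle array 2 at the top.

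**Figure D4:**
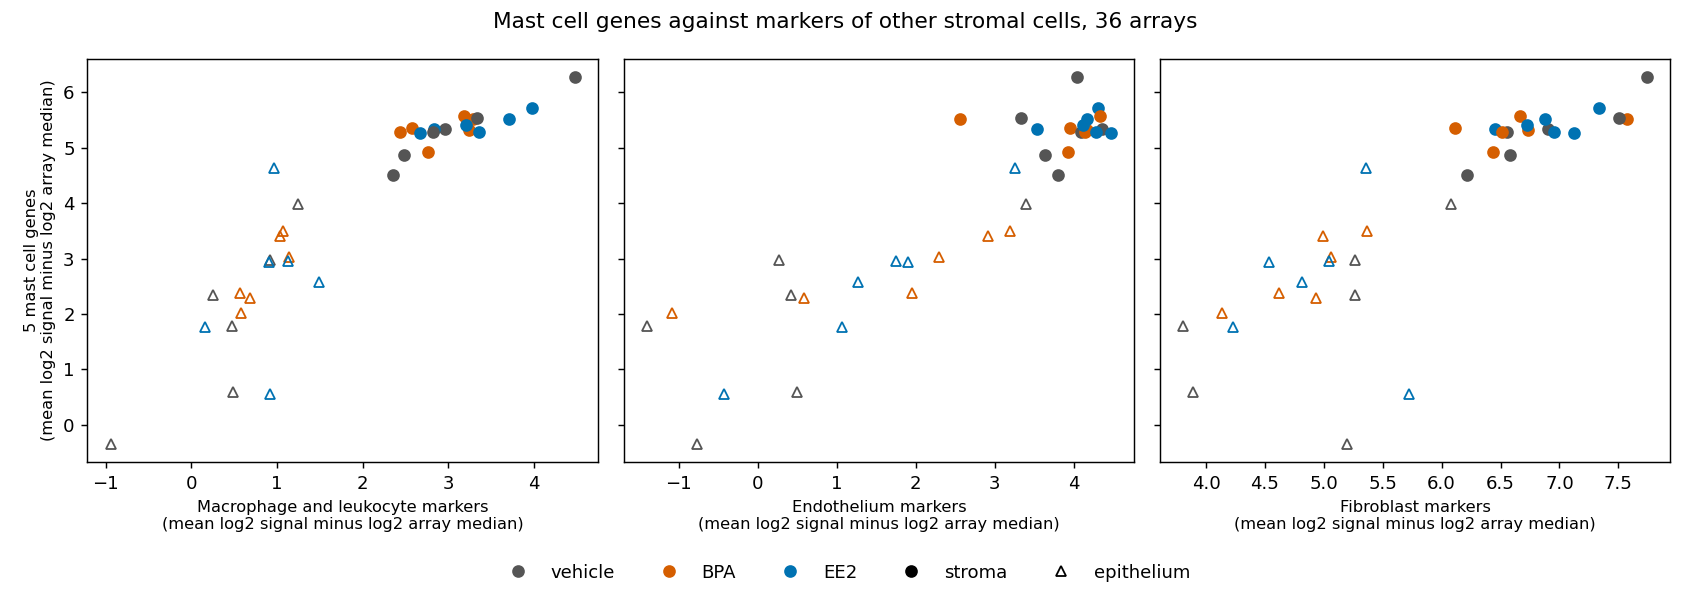
Mean log2 signal minus the log2 array median of Cpa3, Cma1, Mcpt4, Tpsb2 and Hdc against the same measure of 3 marker lists, with 1 point per array (filled circles stroma, open triangles epithelium, colors the exposure). Stromal arrays lie between 4.51 and 6.28 and epithelial arrays between −0.34 and 4.63, and within the epithelium the values go with the endothelial markers (r = 0.78). The genes were picked by their stromal signal, which sets part of the gap between compartments.

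The genes most like the 8 in the stroma were searched among 10430 genes above the array median, by the correlation of log2 signal minus array median with the mean standardised profile of the 8 over 18 arrays. The nearest were Psmd14, a proteasome subunit (r = 0.92), Cep20 (0.89), the autophagy gene Map1lc3b (0.89), Vti1b (0.88) and Pard6a (0.88), followed by Sparcl1, Ylpm1, Ss18l2, Wdr61 and Mrpl33 (all 0.86). Without the 2 dim stromal arrays the same genes had r from 0.51 to 0.72. The 99th percentile of all genes was 0.79, and no gene of the mast cell lists was among the 10 nearest.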

How the data were processed

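The deposited values are linear signal intensities, which the labels name as GCOS output; the authors' methods state RMA in Partek and logs, and which scaling these deposited intensities received is not given in the sources used here. The members and lists were chosen with earlier results of these data known. Groups came from the labels. Replicates of a group came from separate litters, and each treated litter gave a fetus of either genotype. Values below 0.1 were set to 0.1 before log2. Controls (64 probe sets) were left out, and 45037 probe sets entered limma 3.58.1 (R 4.3.3; lmFit, eBayes) with Benjamini-Hochberg adjustment over all of them. For compartments all 36 arrays were used, with the gland, paired by replicate number, as a fixed block. The methods describe 1 gland for both captures, and the labels do not state which arrays pair. Residuals of the paired arrays correlated above 0.1 in 7 of 18 pairs, with a mean r of 0.077, beside −0.038 for other pairs. Residuals were centred within each group of 3, which by itself pushes other pairs below 0 when paired arrays lie above it. The value for other pairs is therefore no independent comparison, and the pairing remains an assumption. Exposures and genotypes were compared over the 18 arrays of a compartment, without a block. Fetuses of both genotypes in an exposure may share litters, so the intervals for exposures may be too narrow. Intervals are 95% from the limma fit. Named genes are the 8 members, the brightest of each list and the 10 of highest likeness. Alternatives were quantile normalization, an offset of 16, a filter at the median signal, array weights, leaving out arrays, the mean of all probe sets of a gene, and the block. The scripts were tested on simulated data. Arrays limit the precision by their number, 3 per group.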

Additional observations from a re-analysis of the deposited data

How the results depend on the processing

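The count of 7 genes higher in the stroma was 7 without each array in turn and 5 to 7 under the other alternatives, 5 with the filter, which removes Fcer1a and Ms4a2 before the test. All counts by exposure or genotype within a compartment stayed at 0. Within exposures the count of genes higher in the stroma was less steady. For vehicle (6) it was 3 without the 3 dimmest arrays and 3 to 6 without each array in turn. For BPA (0) it was 2 with quantile normalization, 3 with an offset of 16, 1 with the filter, 5 with array weights, 1 without the 3 dimmest arrays and 0 to 1 without each array in turn. For EE2 (2) it was 5 with quantile normalization, 5 with the offset, 4 with the filter, 5 with array weights, 6 without the dimmest arrays, 4 with the mean of all probe sets and 0 to 7 without each array in turn. For ERα(−/−) (5) it was 2 to 7 without each array in turn. The cause was not tested.

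Without the gland as a replicate block the count was 0 for EE2 and 3 for ERα(−/−), and 7 over all arrays. Replicate numbers paired across exposures or genotypes, as a block, changed no call of a mast cell gene within a compartment: the counts stayed at 0. Same-numbered arrays of different genotypes had a mean residual correlation of 0.0025 for stroma and 0.031 for epithelium. Leaving out either array of a gland takes the whole gland from the blocked fit.

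Kit changed sign between compartments, none of the values called: 0.30 with quantile normalization and −0.62 to 0.076 without each array in turn. With BPA in the epithelium Kit was −0.12 without the 3 dimmest arrays and −0.12 to 1.74 without each array in turn. Over 48 changes (8 genes, BPA, EE2 and genotype in both compartments), 13 turned sign without the 3 dimmest arrays, 7 with array weights, 6 with quantile normalization, 3 with the mean of all probe sets and 0 with the offset; none was called. With litter as a replicate block the genotype difference of Ms4a2 in the stroma was 1.96 (−0.21 to 4.14), if equal numbers mark a litter. The scaling of the deposited values is unknown, and dim probe sets such as those of Fcer1a and Ms4a2 have no measure of background.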
